A study of Mus musculus with 15 samples.

Results

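Oxidative phosphorylation is carried out by 4 electron transport complexes and by ATP synthase, called complex V, in the inner mitochondrial membrane. The genes described here were taken from the rows of the expression table by symbol. For complex I these were the Ndufa, Ndufb, Ndufc, Ndufs and Ndufv genes with a number. For complex II they were Sdha to Sdhd, and for complex III the Uqcr genes. Complexes IV and V were taken as the Cox4 to Cox8 genes and the Atp5 genes. Every row for a protein-coding gene of mitochondrial DNA was also taken. Ndufab1 and Cyc1 fall outside these symbols and were read with the electron carrier genes. The symbols matched 90 of 12798 rows, of which 79 are nuclear genes and 11 are encoded by mitochondrial DNA. Of the nuclear genes, 35 were counted with complex I, 4 with complex II, 8 with complex III, 15 with complex IV and 17 with complex V. Ndufa4 was counted with complex IV, where its protein is now placed. A few matched symbols do not name a core subunit. Cox7a2l encodes a factor that joins complexes into supercomplexes. Atp5s and Atp5sl carry ATP synthase names and were counted with complex V by symbol alone.

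The cells were mouse bone marrow progenitors on the path from lymphoid progenitors to innate lymphoid cells (ILC), of the C57BL/6 background, profiled by bulk RNA-seq. ALP_WT, an early lymphoid progenitor, had 3 libraries and was gated, in Tcf7EGFP/+ mice, as Lin- Kit+ 2B4+ a4b7- cells that were also Flt3high and IL-7Ra+. EILP_KO, with 2 libraries, was an early ILC progenitor from Tcf7EGFPnull/- mice, sorted as Lin- Kit+ 2B4+ a4b7+ Tcf7+ Thy1-. EILP_WT had 3 libraries from that gate in Tcf7EGFPnull/+ mice, so these cells carried a null Tcf7 allele beside a normal one. The same gate was divided in Tcf7GFP Zbtb16GFP mice into sEILP_WT (2 libraries, Zbtb16low Flt3high) and cEILP_WT (3 libraries, Zbtb16high Flt3low). ILCP_WT, a later ILC progenitor, had 2 libraries from Tcf7EGFP/+ mice and was sorted as a4b7+ Tcf7+ Thy1+ IL-7Ra+. Reporter strain and stage cannot be told apart where sEILP_WT or cEILP_WT is compared with ALP_WT, EILP_WT or ILCP_WT. EILP_WT also differs from ALP_WT and ILCP_WT in its Tcf7 genotype, so genotype and stage cannot be told apart in EILP_WT against ALP_WT or in ILCP_WT against EILP_WT. The labels do not say that replicates came from separate animals, so a p-value here measures the spread between libraries, which may be technical.

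All values are log2 CPM or log2 TPM from the authors' normalized table; which of the units is not stated, so it is not known whether gene length was taken into account, and levels are compared between libraries and not between genes. Each library has a lowest value, between -4.83 and -4.41, that 747 to 2575 genes share, and read depth is unknown. In the knockout check, Tcf7 was 6.97 and 7.65 in EILP_KO, against 9.89, 10.81 and 11.14 in EILP_WT (log2 difference -3.34, adjusted p = 0.00151). The labels place 9 libraries in batch 1 and 6 in batch 2, and sEILP_WT is in batch 1 alone. Of 9 genes of the gates, Zbtb16, Thy1, Tcf7, Itgb7 and Itga4 rose and Flt3 fell in ILCP_WT against ALP_WT. In cEILP_WT against sEILP_WT limma called 0 of the 9, so neither Zbtb16 nor Flt3, which divided these groups, passed. Zbtb16 was nevertheless higher in every cEILP_WT library than in either sEILP_WT library, and Flt3 was lower in each. The closest Flt3 values were 8.26 in cEILP_WT replicate 2 and 8.78 in sEILP_WT replicate 2. An absence of calls in that comparison therefore does not show that genes were unchanged. EILP_WT replicate 3 stood apart, with 2575 genes at its lowest value. Differences were tested with limma over all 15 libraries with batch as a term, and a gene was called at a Benjamini-Hochberg adjusted p under 0.05 over the 12572 genes tested; all 90 genes passed the filter on low values, which asked for 0 or more on the log2 scale in 2 libraries or more.

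Complex I takes electrons from NADH and complex II takes them from succinate; ubiquinone carries them to complex III, and cytochrome c carries them on to complex IV, where oxygen is reduced. Complexes I, III and IV pump protons, and complex V uses the gradient to make ATP. Mitochondrial DNA encodes a few core subunits of complexes I, III, IV and V, and all subunits of complex II are nuclear. Blood progenitors are known to rely on glycolysis and oxidative phosphorylation to different degrees as they leave quiescence and differentiate.

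Most nuclear genes differed little in size between the 6 groups, and their spread within groups was small too. Among the 73 nuclear members at or above the median level of the tested genes, the median standard deviation within groups was 0.21 and the median distance between the highest and the lowest group mean was 0.58 on the log2 scale. The same medians over the 6286 tested genes at or above that level were 0.40 and 0.95. The flattest members were Ndufa10, Cox6b1, Uqcrc1, Ndufb10 and Atp5j, whose group means lay within 0.15 to 0.29 of each other. Uqcrc1, a core protein of complex III, had group means within 0.24. The widest among members at that level were Ndufa4, Cox7a2l, Atp5sl, Uqcrq and Ndufs1, with 1.21 to 1.35 between group means. As a share of each library's summed values, the nuclear members together took 1.49% ± 0.0720 in ALP_WT (n = 3), 1.51% ± 0.120 in EILP_KO (n = 2), 1.34% ± 0.0687 in EILP_WT (n = 3), 1.34% ± 0.0207 in sEILP_WT (n = 2), 1.28% ± 0.00777 in cEILP_WT (n = 3) and 1.18% ± 0.0598 in ILCP_WT (n = 2), each as mean ± SD. The ILCP_WT libraries were at 1.14% and 1.22%, below the ALP_WT libraries at 1.41%, 1.52% and 1.55%. These shares were not tested. In bulk samples, fewer cells of a type and less RNA per cell cannot be told apart.

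**Figure D1:**
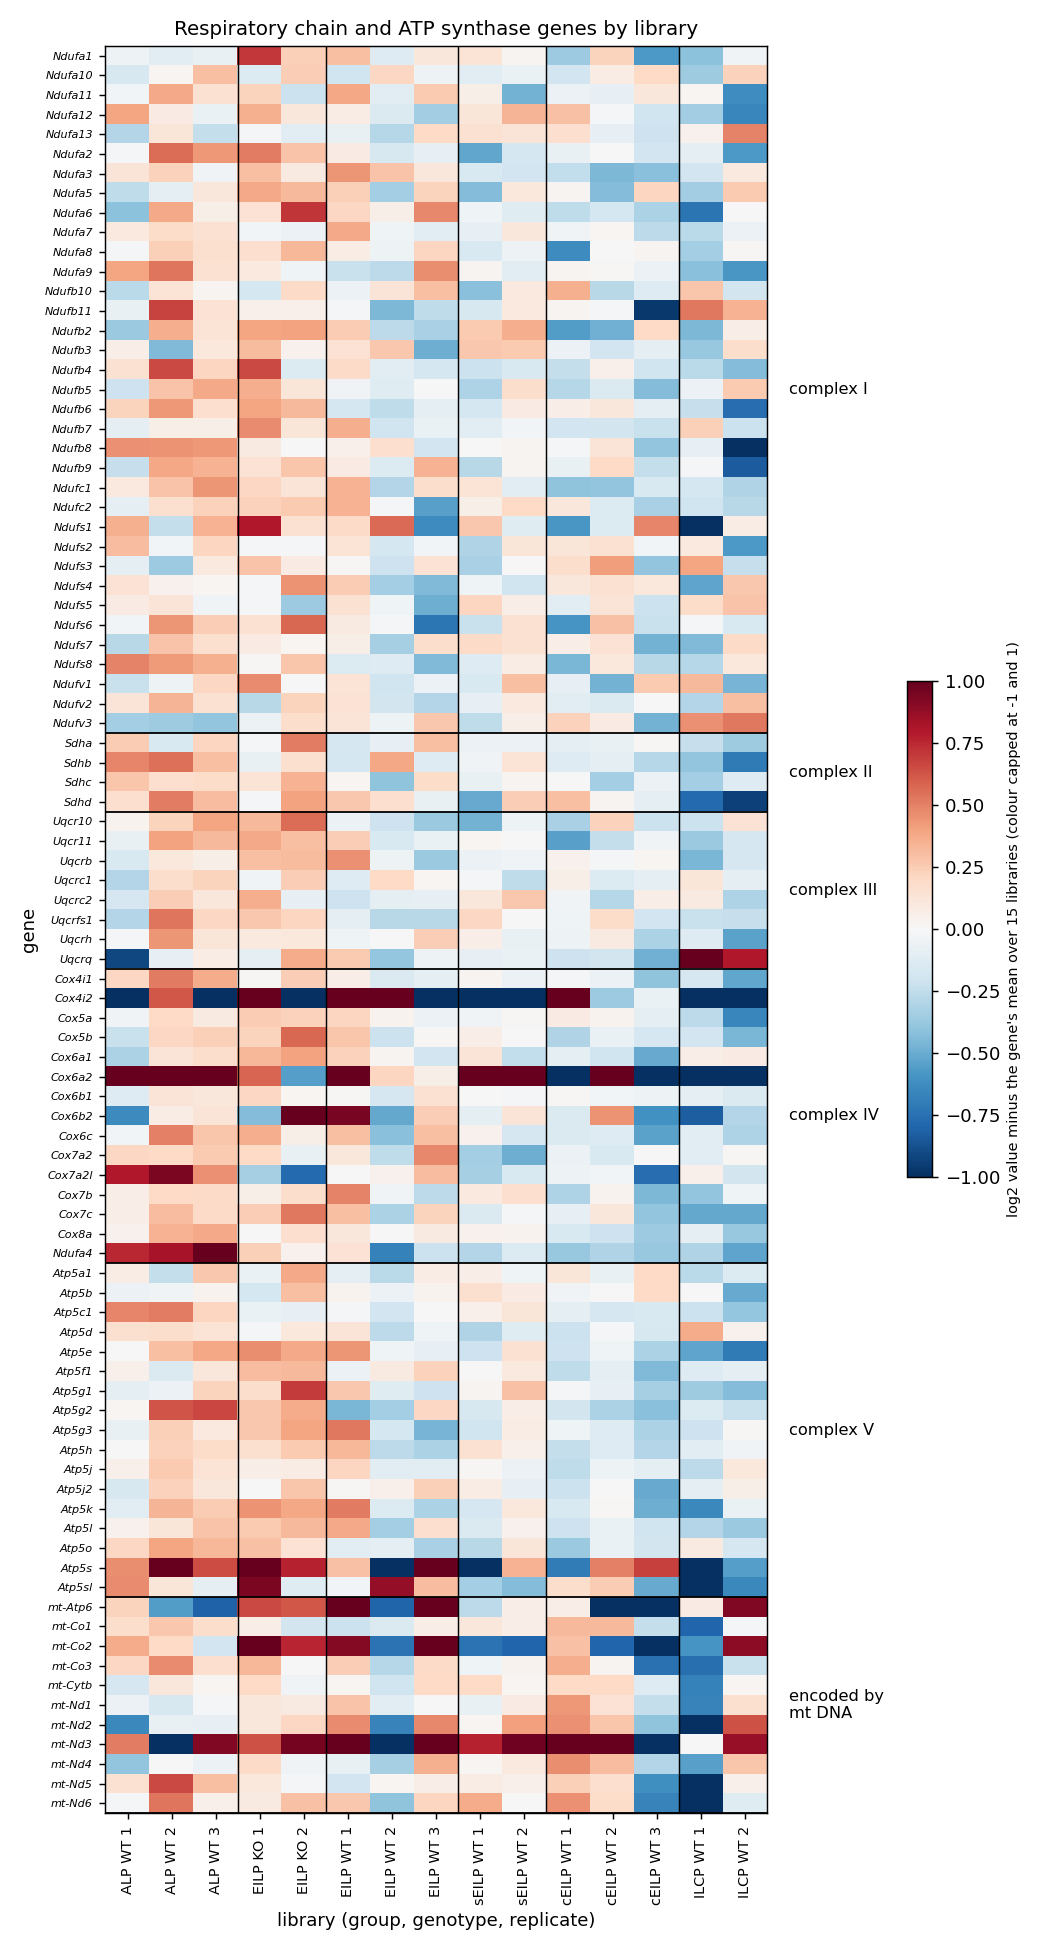
Heat map of the 79 nuclear genes by complex and the 11 mitochondrially encoded genes (rows) in 15 libraries (columns, by group); colour is the log2 value minus the gene's mean over all libraries, capped at -1 and 1. Most nuclear rows are pale, ALP_WT is high for Ndufa4, Cox7a2l and Cox6a2, ILCP_WT is high for Uqcrq and low for Sdhd, and the mitochondrially encoded rows shift together in ILCP_WT replicate 1 and cEILP_WT replicate 3.

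Few members passed a test, and their share was near or below the share among all genes. In ILCP_WT against ALP_WT, the comparison with the widest span, 1 nuclear gene rose and 8 fell, or 11.4% of 79, beside 13.4% of all tested genes, of which 5.56% rose and 7.86% fell. At or above the median level, 11% of 73 nuclear members were called there, beside 17.5% of 6286 genes. At that level the shares were 2.74% and 10.3% in ILCP_WT against cEILP_WT. In ILCP_WT against cEILP_WT, 1 rose and 2 fell, beside 7.41% of all genes, 2.69% higher and 4.72% lower. In ILCP_WT against EILP_WT, 0 rose and 2 fell, beside 6.95% of all genes, 2.61% higher and 4.34% lower. In EILP_WT against ALP_WT 1 gene fell, beside 3.21% of all genes, 1.71% higher and 1.5% lower. In sEILP_WT against ALP_WT limma called 0 nuclear members, beside 0.803% of all genes, 0.493% higher and 0.31% lower. At an unadjusted p under 0.05 by limma there were 9 of the 79 nuclear members, beside 1148 of the 12572 genes. In cEILP_WT against sEILP_WT it called 0 members and 0 genes in the table, with 0 nuclear members and 647 of all genes at an unadjusted p under 0.05. In EILP_KO against EILP_WT it called 0 members, beside 0.103% of all genes, 0.0477% higher and 0.0557% lower. At an unadjusted p under 0.05 by limma there were 3 of the 79 nuclear members, beside 1094 of the 12572 genes. An F test over all 6 groups called 4 of the 79, Cox6a2, Ndufa4, Atp5c1 and Cox7a2l, beside 8.36% of all genes. The comparisons share the ALP_WT, EILP_WT, cEILP_WT or ILCP_WT libraries and are not independent of each other. No mitochondrially encoded gene was called by limma in any of these tests, and at most 2 of the 11 had an unadjusted p under 0.05.

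The direction of the differences, over called and uncalled members together, was uneven in ILCP_WT against ALP_WT. The log2 difference was negative for 69 of the 79 nuclear members and its median was -0.36, beside a median of -0.09 over all tested genes, of which 46.8% were positive. Under cyclic loess normalization, applied on top of the deposited scaling, the nuclear median was -0.23 and 18 of 79 were positive. By complex, the median was -0.18 for complex I, -0.72 for complex II, -0.28 for complex III, -0.49 for complex IV and -0.36 for complex V. Within batch 1, with 1 library a group, the nuclear median was -0.23 and 56 of 79 were negative. Within batch 2, with 1 ILCP_WT and 2 ALP_WT libraries, it was -0.39 and 67 of 79 were negative. Along the way, the nuclear median was -0.12 for EILP_WT against ALP_WT, -0.17 for sEILP_WT against ALP_WT, -0.13 for cEILP_WT against sEILP_WT and -0.06 for ILCP_WT against cEILP_WT. That last median turned to 0.05 under cyclic loess, with 46 of 79 positive, against 34 of 79 on the deposited scale. The sEILP_WT against ALP_WT median was -0.02 when those groups alone were fitted. The EILP_WT against ALP_WT median was 0.02 within batch 1 and -0.28 within batch 2, and the sEILP_WT against ALP_WT median was -0.03 within batch 1, so neither held its size within batch 1. All 20 cell cycle markers listed were measured, and 8 of them fell in ILCP_WT against ALP_WT by the same test, or 40%, beside 7.86% of all genes. The summed linear value of the 20 was 5250 to 6010 in ILCP_WT, against 9410 to 10200 in ALP_WT. No marker of that list was at the lowest value throughout a group. Of 10 measured T and NK cell markers of 12 listed, 4 rose (Ncr1, Cd3g, Cd3e and Nkg7), or 40%, beside 5.56% of all genes. The 10 summed to 840 to 977 in ILCP_WT, against 249 to 439 in ALP_WT, where 5 were at the lowest value in every library. The 12 myeloid and neutrophil markers summed to 173 to 956 in ILCP_WT, against 1160 to 2210 in ALP_WT. Of these 1, Prtn3, fell, or 8.33%, beside 7.86% of all genes. The part of cycling or of these cells in the members' differences was not tested.

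**Figure D2:**
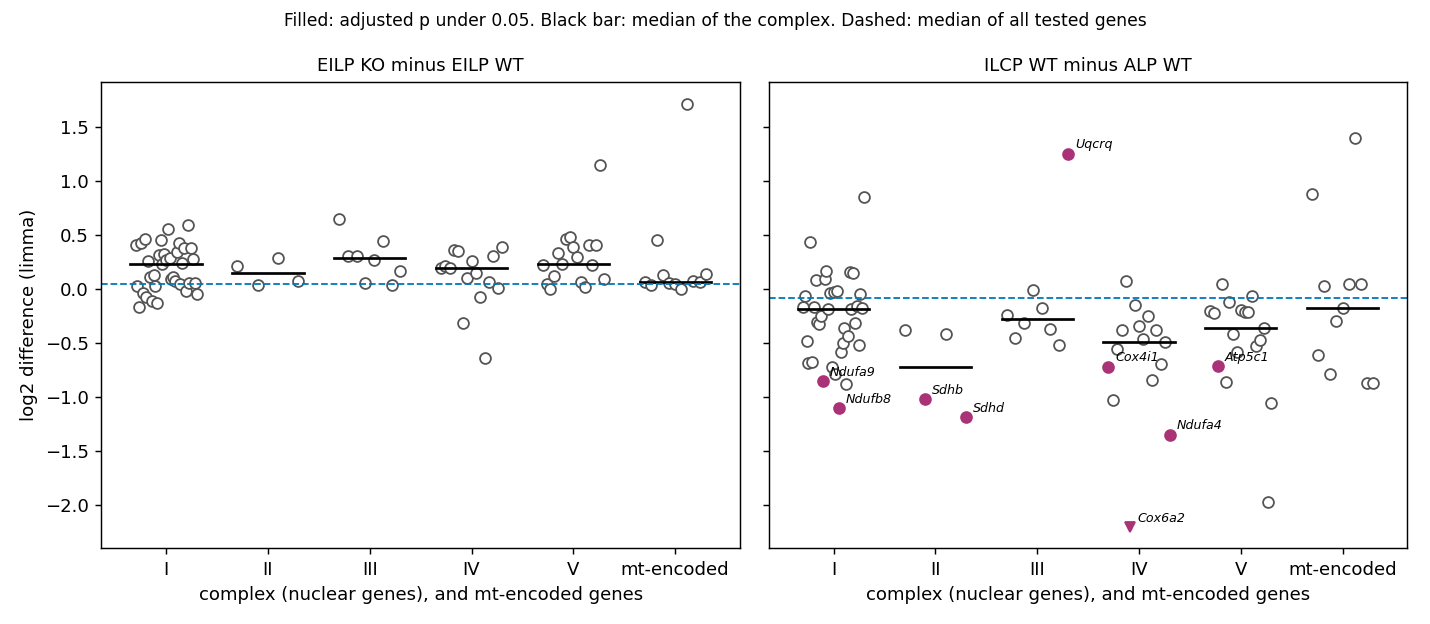
Log2 difference (y axis) of each gene by complex (x axis), for EILP_KO minus EILP_WT on the left and ILCP_WT minus ALP_WT on the right; filled points passed an adjusted p of 0.05, black bars are medians of each complex and the dashed line is the median of all tested genes. On the right 69 of the 79 nuclear points are negative and 9 are filled. Cox6a2, which was at the lowest value in ILCP_WT, is drawn as a triangle at the lower edge because its difference lies below the plotted range. On the left 69 of 79 are positive and 0 are filled.

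In complex I, Ndufa9 and Ndufb8 fell in ILCP_WT against ALP_WT. Ndufa9 encodes an accessory subunit at the junction of the matrix and membrane arms, and Ndufb8 a membrane arm subunit. Ndufa9 (chr6:126821721-126849136, GRCm38) was 7.07 and 6.91 in ILCP_WT, against 7.89, 8.03 and 7.64 in ALP_WT. Both ILCP_WT libraries were below all 13 other libraries. Its log2 difference was -0.85 ± 0.22 (SE, adjusted p = 0.0255); the call was lost without ALP_WT replicate 1 (adjusted p = 0.0843), ALP_WT replicate 2 (0.0777) or ILCP_WT replicate 2 (0.192). It was also lost under cyclic loess (0.0634), without the intensity trend (0.0821), when only the groups compared were fitted (0.082) and in batch 1 alone (0.091). Ndufb8 (chr19:44548572-44555440) was 6.84 and 5.82 in ILCP_WT, against 7.38, 7.37 and 7.36 in ALP_WT. The ALP_WT values lay above every other library and the ILCP_WT values were far apart. Its log2 difference was -1.10 ± 0.23 (adjusted p = 0.00837), and -0.68 (adjusted p = 0.113) without ILCP_WT replicate 2; the call was also lost when only the groups compared were fitted (0.107) and in batch 1 alone (0.275).

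Other complex I genes named by level or role did not pass. Ndufv3, a small subunit next to the NADH-binding site, had 6.62 and 6.68 in ILCP_WT, against 5.82, 5.80 and 5.76 in ALP_WT. These groups did not overlap, and its log2 difference of 0.85 ± 0.27 had an adjusted p of 0.0573, and of 0.0357 under cyclic loess. Ndufs1, the largest iron-sulfur subunit of the matrix arm, varied most within groups: it was 5.83 and 7.44 in ILCP_WT and 7.72, 7.13 and 7.71 in ALP_WT (adjusted p = 0.285). Ndufv1, which binds NADH, and Ndufs7, which holds the last iron-sulfur cluster, differed by -0.05 ± 0.29 and -0.16 ± 0.28 in ILCP_WT against ALP_WT (SE). Ndufb11, of the membrane arm, had the second highest difference among nuclear members in ILCP_WT against cEILP_WT, 0.78 ± 0.33 (adjusted p = 0.186), with 6.95 and 6.78 in ILCP_WT and 6.45, 6.42 and 5.46 in cEILP_WT. Of the 35 nuclear complex I genes, 28 had a negative difference in ILCP_WT against ALP_WT, and 20% were positive, beside 46.8% of all genes.

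In complex II, which also serves as an enzyme of the tricarboxylic acid cycle, Sdhb and Sdhd fell in ILCP_WT. Sdhb encodes the iron-sulfur subunit and Sdhd a membrane anchor. Sdhd (chr9:50596357-50603812) was 7.32 and 7.16 in ILCP_WT; it was 8.17 ± 0.21 in cEILP_WT (mean ± SD, n = 3), 8.36, 8.26 and 8.02 in EILP_WT and 8.26, 8.61 and 8.40 in ALP_WT. Both ILCP_WT libraries were below all others, the lowest of which was sEILP_WT replicate 1 at 7.59. The log2 difference was -1.19 ± 0.24 against ALP_WT (adjusted p = 0.00682), -0.97 ± 0.24 against EILP_WT (adjusted p = 0.0295) and -0.93 ± 0.24 against cEILP_WT (adjusted p = 0.0356). The call against ALP_WT was lost without ILCP_WT replicate 2 (adjusted p = 0.0589). That against EILP_WT was lost when EILP_WT replicate 1 or 2 or either ILCP_WT library was left out, and that against cEILP_WT without ALP_WT replicate 3 or any cEILP_WT or ILCP_WT library, with adjusted p up to 0.129 and 0.145. Cyclic loess ended the calls against EILP_WT and cEILP_WT (adjusted p = 0.0632 and 0.079), as did leaving out the intensity trend (0.111 and 0.117) and fitting only the groups compared (0.145 and 0.0805). In batch 1 alone none of the 3 Sdhd calls held (0.14 to 0.201).

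Sdhb (chr4:140961203-140979193) was 7.69 and 7.38 in ILCP_WT, against 8.57, 8.64 and 8.39 in ALP_WT. Every other library lay between 7.80 and 8.48. Its log2 difference against ALP_WT was -1.02 ± 0.19 (adjusted p = 0.00454), and the call was lost without ILCP_WT replicate 2 (adjusted p = 0.0541) and in batch 1 alone (0.149). Sdha, the flavoprotein subunit, had 9.32 and 9.19 in ILCP_WT and 9.80, 9.40 and 9.76 in ALP_WT, a difference of -0.38 ± 0.18 (adjusted p = 0.198). Sdhc, the other anchor, differed by -0.42 ± 0.22 (adjusted p = 0.249). All 4 genes of the complex had negative differences in ILCP_WT against ALP_WT, EILP_WT and cEILP_WT, where 46.8%, 47.6% and 47.2% of all genes were positive. Of the 4, 2, 1 and 1 passed, or 50%, 25% and 25%, beside 13.4%, 6.95% and 7.41% of all genes.

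In complex III, Uqcrq was the one nuclear member that rose. It encodes a small subunit in contact with the ubiquinone-binding side of the complex. Uqcrq (chr11:53427922-53430831) was 7.51 and 7.28 in ILCP_WT, 6.27, 6.29 and 6.00 in cEILP_WT and 5.57, 6.40 and 6.55 in ALP_WT. The ILCP_WT values were above all 13 other libraries, the highest of which was EILP_KO replicate 2 at 6.85. The log2 difference was 1.25 ± 0.31 against ALP_WT (adjusted p = 0.0194), 1.18 ± 0.31 against cEILP_WT (adjusted p = 0.0402) and 0.95 ± 0.31 against EILP_WT (adjusted p = 0.0909). The call against ALP_WT was lost without ALP_WT replicate 1 (adjusted p = 0.0773) or ILCP_WT replicate 1 (adjusted p = 0.132). The call against cEILP_WT was lost in 8 of 15 fits that each left out a library: ALP_WT replicate 2 or any sEILP_WT, cEILP_WT or ILCP_WT library, with adjusted p up to 0.257. When only the groups compared were fitted, the calls against ALP_WT and cEILP_WT were both lost (adjusted p = 0.101 and 0.0683); that against cEILP_WT was also lost without the intensity trend (0.0891) and in batch 1 alone (0.101). The core proteins Uqcrc1 and Uqcrc2 and the Rieske iron-sulfur protein Uqcrfs1 differed by -0.01 ± 0.18, -0.18 ± 0.21 and -0.37 ± 0.24 in ILCP_WT against ALP_WT (SE, all uncalled).

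Complex IV held 3 of the 9 genes called in ILCP_WT against ALP_WT, or 20% of its 15 nuclear genes, beside 13.4% of all genes. It held 3 of the 4 called by the F test, again 20% of the 15, beside 8.36% of all genes. Cox7a2l, which is not a core subunit, was among the latter. Cox6a2, known as the heart and skeletal muscle form of subunit VIa, had the widest span of any member. It was 7.04, 7.51 and 6.39 in ALP_WT, 2.98 and 1.85 in EILP_KO, and 3.85, 2.61 and 2.45 in EILP_WT. The sEILP_WT values were 4.10 and 3.73, and it was 0.95, 3.94 and -2.37 in cEILP_WT and at the lowest value of the library in both ILCP_WT samples. ALP_WT lay above all other groups and ILCP_WT below them; the groups between overlapped. Because ILCP_WT was at the lowest value, no fold is given; the adjusted p was 0.000251 against ALP_WT, 0.00847 against EILP_WT and 0.045 against cEILP_WT, and 0.00374 in the F test. The ALP_WT call and the F test call held in each of 15 fits that left out a library, the EILP_WT call was lost without ILCP_WT replicate 1 (adjusted p = 0.0618), and the cEILP_WT call was lost in 13 of 15, all but those without cEILP_WT replicate 3 or EILP_WT replicate 3. The calls against EILP_WT and cEILP_WT were also lost when only the groups compared were fitted (adjusted p = 0.169 and 0.247), the cEILP_WT call when quantile normalization was repeated (0.0802) and in batch 1 alone (0.0537), and the F test call in batch 1 alone (0.0882). In EILP_WT against ALP_WT the Cox6a2 difference of -4.49 ± 1.28 had an adjusted p of 0.0866, and of 0.0309 when only these groups were fitted.

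Cox6a2 (chr7:128205435-128206387, minus strand) lies inside Itgad, an integrin gene on the plus strand, and 70 of its 680 exonic bases overlap an Itgad exon in GENCODE. The library kit named in the labels does not mark strand, so reads of these genes cannot be told apart there. Itgad was at the lowest value in both ILCP_WT libraries, against 3.72, 3.62 and 2.29 in ALP_WT (adjusted p = 0.0816). The other muscle, lung or testis forms in the table, Cox4i2 and Cox6b2, gave no call: Cox4i2 was at the lowest value of the library in 7 of 15, and Cox6b2 was 1.99 and 2.52 in ILCP_WT and at most 2.94 in ALP_WT. Cox6a1, the form made in most tissues, was 7.60 and 7.61 in ILCP_WT and 7.21, 7.65 and 7.70 in ALP_WT.

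Ndufa4, a peripheral subunit of complex IV, was 8.24, 8.31 and 8.70 in ALP_WT, 7.73 and 7.53 in EILP_KO, and 7.63, 6.81 and 7.27 in EILP_WT. The sEILP_WT values were 7.19 and 7.35, the cEILP_WT values 7.11, 7.18 and 7.11, and the ILCP_WT values 7.18 and 6.96. All 3 ALP_WT libraries were above the other 12, and both EILP_KO libraries were above every sEILP_WT, cEILP_WT and ILCP_WT library; those 3 groups lay within 6.96 to 7.35. Ndufa4 (chr6:11900292-11907497) was the one member that fell in EILP_WT against ALP_WT, by 1.18 ± 0.22 on the log2 scale (adjusted p = 0.0123), or 2.27-fold. In ILCP_WT against ALP_WT it fell by 1.35 ± 0.24 (adjusted p = 0.00344). The sEILP_WT difference from ALP_WT was of like size, -1.15 ± 0.26, with an adjusted p of 0.0757. The EILP_WT call was lost without EILP_WT replicate 3 (adjusted p = 0.0557), and also when only these groups were fitted (0.119), without the intensity trend (0.0592) and in batch 1 alone (0.265). The ILCP_WT call held whichever library was left out and was lost in batch 1 alone (adjusted p = 0.189). Within batch 1 EILP_WT averaged 7.22, against 8.24 in ALP_WT; within batch 2 the values were 7.27 and 8.50. The F test call (adjusted p = 0.0152) was lost without ALP_WT replicate 3 (adjusted p = 0.0635), without the intensity trend (0.0867) and in batch 1 alone (0.354).

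Cox7a2l was also highest in ALP_WT, with 7.24, 7.37 and 6.89. It was 6.11 and 5.66 in EILP_KO, and 6.44, 6.48 and 6.75 in EILP_WT. The sEILP_WT values were 6.11 and 6.29, the cEILP_WT values 6.38, 6.41 and 5.68, and the ILCP_WT values 6.48 and 6.26. No library of another group reached the lowest ALP_WT value. It passed the F test (adjusted p = 0.0457) but no comparison of a pair of groups, and the F test call held in 1 of 15 fits that each left out a library, the one without EILP_WT replicate 3. It was also lost without the batch term (adjusted p = 0.0581), without the intensity trend (0.116) and in batch 1 alone (0.248). Its transcript matches a processed pseudogene, Gm6969, over 342 bases with 98.0% identity, so its reads are partly ambiguous. Cox4i1 (chr8:120668222-120674207), a nuclear subunit needed to start assembly of the complex, was 8.07 and 7.72 in ILCP_WT, against 8.45, 8.76 and 8.61 in ALP_WT. It fell by 0.72 ± 0.18 (adjusted p = 0.0187), a call lost without ALP_WT replicate 2 (adjusted p = 0.0629), ALP_WT replicate 3 (0.0527) or ILCP_WT replicate 2 (0.19). It was also lost under cyclic loess (0.053), without the intensity trend (0.0907), when only the groups compared were fitted (0.118) and in batch 1 alone (0.334). It shares 154 of its 1550 exonic bases with Emc8 on the opposite strand, whose reads there cannot be told apart. Cox5a, a matrix-side subunit, had 6.85 and 6.46 in ILCP_WT and 7.08, 7.31 and 7.20 in ALP_WT (difference -0.56 ± 0.18, adjusted p = 0.0634).

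In complex V, Atp5c1, the gamma subunit that turns inside the catalytic head, fell in ILCP_WT against ALP_WT. Atp5c1 (chr2:10056016-10080510) was 8.48 and 8.31 in ILCP_WT, against 9.18, 9.20 and 8.91 in ALP_WT. The ALP_WT libraries were above all 12 others, which lay between 8.31 and 8.82. The log2 difference was -0.71 ± 0.13 (adjusted p = 0.00495), and the call was lost without ILCP_WT replicate 2 (adjusted p = 0.0577), without the intensity trend (0.0604), when only the groups compared were fitted (0.0754) and in batch 1 alone (0.0815). In EILP_WT against ALP_WT, with 8.68, 8.50 and 8.69 in EILP_WT, the difference of -0.49 ± 0.12 had an adjusted p of 0.0553. The F test call (adjusted p = 0.0383) was lost in 11 of 15 fits that left out a library, and held without ALP_WT replicate 3 or any EILP_WT library. It was also lost under cyclic loess (0.0687), without the intensity trend (0.277) and in batch 1 alone (0.233). Atp5c1 has 2 pseudogene copies that match it over at least 150 bases with at least 95% identity. The catalytic subunits were flat: Atp5b was 10.98 and 10.47 in ILCP_WT and 10.92, 10.95 and 11.02 in ALP_WT, and Atp5a1 was 10.09 and 10.22 in ILCP_WT and 10.43, 10.11 and 10.62 in ALP_WT. Their differences were -0.23 ± 0.16 and -0.21 ± 0.16 (SE, adjusted p = 0.402 and 0.446). Of the 17 genes counted with complex V, 16 had negative differences, while 46.8% of all genes were positive. Of the 17, 1 passed, or 5.88%, beside 13.4% of all genes.

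**Figure D3:**
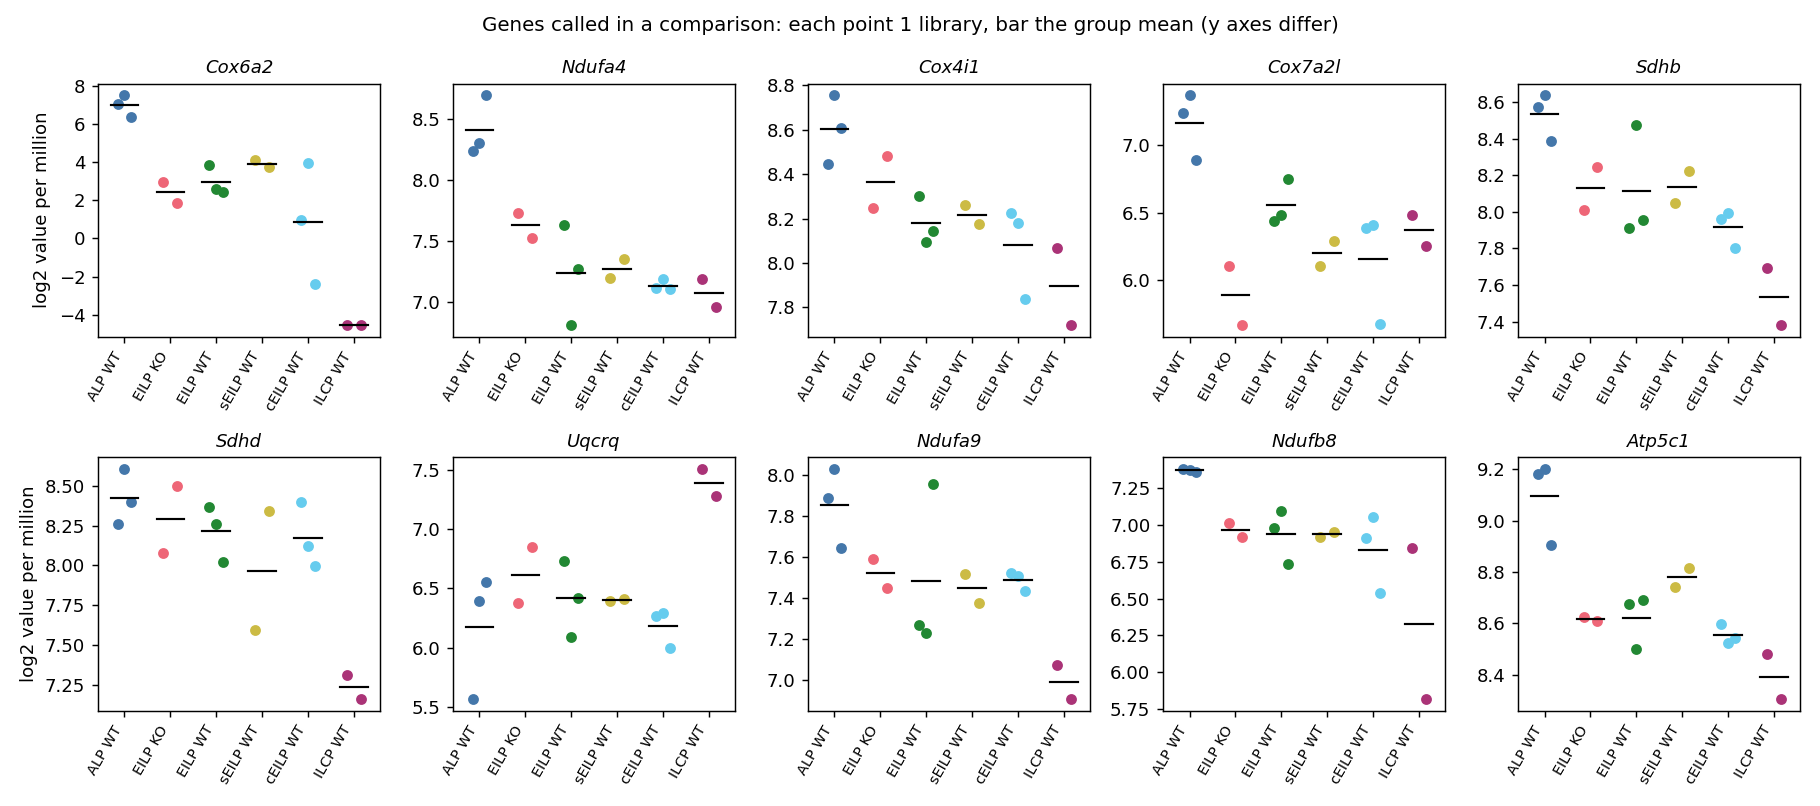
Log2 value, CPM or TPM (y axis, a different range in each panel) of the 10 nuclear genes called in any test, by group (x axis); points are libraries and bars are group means. ALP_WT is the highest group for Cox6a2, Ndufa4, Cox7a2l, Ndufb8 and Atp5c1, and ILCP_WT is the highest for Uqcrq and the lowest for Sdhd, Sdhb and Ndufa9.

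Loss of the remaining Tcf7 allele was examined in EILP_KO against EILP_WT. By limma no member passed in this comparison, in which 13 of all genes passed. The 3 nuclear members at an unadjusted p under 0.05 were Uqcr10, Atp5o and Cox7a2l, beside 1094 of the 12572 genes. No mitochondrially encoded gene reached that level. The log2 difference was positive for 69 of the 79 nuclear members (87.3%), beside 52.8% of all tested genes, with a median of 0.22 beside 0.04. Within batch 1 it was positive for 60 of 79 and within batch 2 for 59 of 79. Without EILP_WT replicate 2 the count was 58 and the median 0.15. All genes of complexes II, III and V had positive differences, with medians of 0.14, 0.28 and 0.23. Uqcr10, a small subunit of complex III, was 6.36 and 6.60 in EILP_KO and 5.98, 5.83 and 5.66 in EILP_WT (difference 0.64 ± 0.28, adjusted p = 0.558). Ndufb6, of complex I, was 5.85 and 5.78 in EILP_KO and 5.28, 5.20 and 5.36 in EILP_WT (difference 0.55 ± 0.30, adjusted p = 0.625). Cox7a2l went the other way, with 6.11 and 5.66 in EILP_KO and 6.44, 6.48 and 6.75 in EILP_WT (difference -0.63 ± 0.27, adjusted p = 0.552). The 3 genes were named because their differences were among the 3 highest or 3 lowest of nuclear members at or above the median level. None of them passed.

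Markers of other cell types were read in this comparison, and limma called none of them in the lists that follow. The 12 myeloid and neutrophil markers listed, all measured, summed to 4310 to 5560 in EILP_KO and 552 to 4050 in EILP_WT. Ltf was at the lowest value in all EILP_WT libraries and in EILP_KO replicate 2, and was 3.24 in EILP_KO replicate 1. Of 12 erythroid and megakaryocyte markers, 11 were measured and summed to 492 to 622 in EILP_KO and 128 to 520 in EILP_WT. These ranges overlap. Pf4 was at the lowest value throughout EILP_WT and in EILP_KO replicate 1, and was 5.38 in EILP_KO replicate 2. Of 10 measured T and NK cell markers, 9 had a negative difference, with a median of -3.48; they summed to 434 to 586 in EILP_KO, where 6 were at the lowest value in both libraries, and 376 to 1100 in EILP_WT. In EILP_WT replicate 3, Klrb1c was 6.62, Eomes 6.48 and Gzma 5.12. The 4 measured mast cell and basophil markers of 6 listed summed to 334 to 510 in EILP_KO and 576 to 814 in EILP_WT, although 3 of the 4 had a positive difference. The 3 measured B lineage markers of 8 listed summed to 51.3 to 103 in EILP_KO and 70.3 to 124 in EILP_WT. The 20 cell cycle markers summed to 8310 to 8540 in EILP_KO and 5250 to 7430 in EILP_WT. All 20 had a positive difference, with a median of 0.46, beside 0.04 over all tested genes. The part of these cells or of cycling in the members' differences was not tested.

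The 11 mitochondrially encoded genes shifted together in single libraries. Their median standard deviation within groups was 0.40 and the median distance between the highest and the lowest group mean was 0.77, beside 0.40 and 0.95 for all genes at or above the median level. Together they took 0.673% ± 0.0435 of the summed values in ALP_WT, 0.650% ± 0.0570 in EILP_KO, 0.627% ± 0.0645 in EILP_WT, 0.670% ± 0.0125 in sEILP_WT, 0.687% ± 0.135 in cEILP_WT and 0.516% ± 0.203 in ILCP_WT (SD). In ILCP_WT replicate 1 all 11 lay below the group mean; with 2 libraries in the group, replicate 2 mirrors it. In cEILP_WT replicate 3 all 11 lay below the mean, and in EILP_WT replicate 2, 10 of 11 did. The nuclear members of ILCP_WT replicate 1 did not follow, with 38 of 79 below their group mean, while 57 of 79 were below it in cEILP_WT replicate 3 and 59 of 79 in EILP_WT replicate 2. In cEILP_WT replicate 3, S100a9 was 7.79 and Ltf 6.39, and both were at the lowest value in replicates 1 and 2. Prtn3, Ctsg and Cebpa were lower there than in replicates 1 and 2. In ILCP_WT replicate 1, Mpo was 9.16 and Elane 7.05, against 5.46 and 3.04 in replicate 2. Csf1r, S100a8 and S100a9 were lower there than in replicate 2. The part of myeloid cells in these shifts was not tested.

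**Figure D4:**
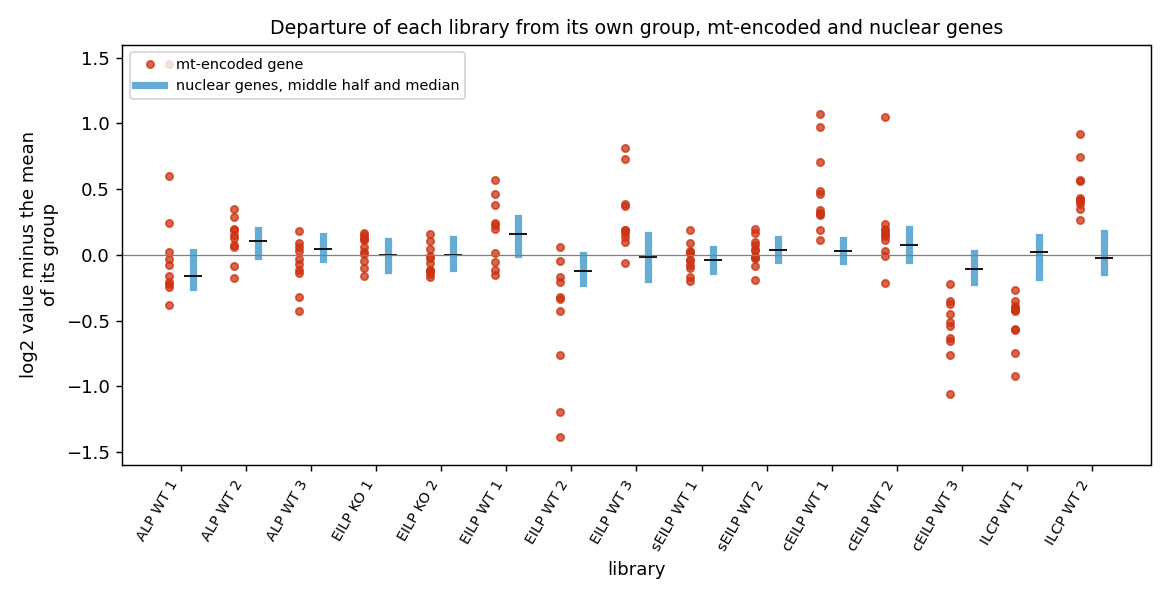
Log2 value minus the mean of the gene's own group (y axis) in each library (x axis); red points are the 11 mitochondrially encoded genes, and blue bars and black ticks are the interquartile range and median of the 79 nuclear genes. Points of 1 library lie to 1 side of zero in ILCP_WT replicates 1 and 2 and cEILP_WT replicates 1 and 3; groups of 2 libraries mirror each other by construction, and 6 points lie outside the axis limits of -1.6 and 1.6.

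Per gene, mt-Co1, the catalytic subunit of complex IV, was 10.37 and 11.14 in ILCP_WT, 11.48, 11.48 and 10.92 in cEILP_WT and 11.34, 11.43 and 11.34 in ALP_WT. The ILCP_WT values were below ALP_WT but far from each other. Its difference in ILCP_WT was -0.61 ± 0.22 against ALP_WT (adjusted p = 0.0884) and -0.55 ± 0.22 against cEILP_WT (adjusted p = 0.163). Without cEILP_WT replicate 3 it passed in both (adjusted p = 0.0442 and 0.0391), and without ILCP_WT replicate 2 it did too (0.011 and 0.0178). mt-Nd5, a proton-pumping subunit of complex I, was 7.90 and 9.03 in ILCP_WT and 9.13, 9.64 and 9.28 in ALP_WT (difference -0.87 ± 0.31, adjusted p = 0.0923), and passed without cEILP_WT replicate 3 (adjusted p = 0.0367) or ILCP_WT replicate 2 (0.0133). mt-Nd1 passed in ILCP_WT against cEILP_WT without ILCP_WT replicate 2 (adjusted p = 0.0433). The sign of the set differed between batches in some comparisons, and each batch holds a single ILCP_WT library, so that batch and library cannot be told apart there. In ILCP_WT against cEILP_WT, 1 of 11 differences was positive within batch 1 (median -0.96, with 1 and 2 libraries) and 11 of 11 within batch 2 (median 0.56, with 1 library each). In ILCP_WT against ALP_WT the counts were 0 and 6 of 11. In ILCP_WT against EILP_WT the sign held, with 1 of 11 positive within batch 1 (median -0.68) and 2 of 11 within batch 2 (median -0.18). In EILP_KO against EILP_WT, 11 of 11 were positive in the fit of all libraries, 11 of 11 within batch 1 and 2 of 11 within batch 2. The count was 2 of 11 without EILP_WT replicate 2 and 5 of 11 without EILP_KO replicate 1. These counts include mt-Nd3, mt-Co2 and mt-Atp6, whose values are low. A filter of at least 4 on the log2 scale in 2 libraries leaves them out. It moved the ILCP_WT against ALP_WT median from -0.18, with 5 positive, to -0.45, with 2 positive. For EILP_KO against EILP_WT the median was 0.07 before and 0.06 after.

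mt-Nd4, mt-Cytb and mt-Nd1 gave no call by limma in ILCP_WT against ALP_WT, with differences of 0.04 ± 0.29, -0.30 ± 0.19 and -0.18 ± 0.24. mt-Nd1 was 9.33 and 10.16 in ILCP_WT and 9.94, 9.84 and 9.98 in ALP_WT. mt-Cytb was 10.23 and 10.92 in ILCP_WT and 10.73, 11.02 and 10.92 in ALP_WT.

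The nuclear genome carries copies of mitochondrial DNA, and 8 of the 11 mitochondrially encoded genes match a pseudogene transcript in GENCODE over at least 150 bases with at least 95% identity; among the nuclear members 24 of 79 do. mt-Co2, mt-Atp6, mt-Co3 and mt-Nd4 have copies on chromosome 1 with 0 mismatches over 681, 678, 783 and 876 bases. The opening bases of mt-Co2 (chrM:7013-7132, plus strand) and of its copy Gm28661 (chr1:24615446-24615565, minus strand) are printed because no read from them can be assigned to either gene. Below them are the same stretch of mt-Co1 (chrM:5328-5447) and its copy Gm13340 (chr2:22589528-22589647, minus strand), which differ at 3 of 120 bases, in capitals.
mt-Co2: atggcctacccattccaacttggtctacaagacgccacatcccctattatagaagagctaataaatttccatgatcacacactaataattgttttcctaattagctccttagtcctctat
Gm28661: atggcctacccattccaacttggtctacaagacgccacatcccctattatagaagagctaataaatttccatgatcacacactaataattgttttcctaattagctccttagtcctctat
mt-Co1: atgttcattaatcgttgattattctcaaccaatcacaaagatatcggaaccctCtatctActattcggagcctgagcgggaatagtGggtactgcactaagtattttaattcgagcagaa
Gm13340: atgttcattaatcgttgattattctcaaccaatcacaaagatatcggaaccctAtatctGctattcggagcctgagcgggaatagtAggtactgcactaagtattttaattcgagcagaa

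The table holds rows of their own for mt-Co2 and its copy. In EILP_KO mt-Co2 was 2.33 and 2.03 and Gm28661 was 2.30 and 2.12; in ALP_WT they were 1.64, 1.47 and 1.08, and 1.35, 1.11 and 0.98. In sEILP_WT mt-Co2 was 0.53 and 0.48 and Gm28661 was 1.57 in both libraries. mt-Atp6 was 1.18 and 2.02 in ILCP_WT and 1.31, 0.53 and 0.28 in ALP_WT, and its copy Gm10925 was 1.96 and 2.47 in ILCP_WT and 1.86, 2.59 and 1.98 in ALP_WT. The levels of mt-Co2, mt-Atp6, mt-Co3, mt-Nd4 and mt-Nd3, whose copy Gm28438 differs by 1 base in 345, are therefore uncertain, and mt-Nd3 was at the lowest value of the library in EILP_WT replicate 2. For mt-Co1, whose copy has 37 mismatches over 1545 bases, Gm13340 was 2.20 and 3.45 in ILCP_WT and 3.31, 3.31 and 2.69 in ALP_WT.

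Promoter sequence was compared for the nuclear members, using 250 bases before the RefSeq start of transcription (GRCm38.p6), which was given for 66 of 79. The motif of NRF1, a transcription factor known to act on respiratory chain genes, searched on both strands, was in 12 windows (18.2%), beside 8.7% of the 9271 windows of genes in the table and 3.86% of all 27025. The motif of GABPA and other ETS factors, CCGGAAG, searched like the others on both strands, was in 11 (16.7%), beside 14.5% of the table's windows and 7.05% of all. The YY1 motif AAGATGGC was in 0 of 66, beside 2.18% and 1.59%. The estrogen-related receptor motif TCAAGGTCA was in 1, that of Atp5g3, beside 0.227% and 0.366%. The motif of the factor encoded by Tcf7, CTTTGAT, was in 0, beside 2.2% and 3.23%. A match is a description of the letters and no match says only that they are not in this window. A start of another protein-coding gene on the opposite strand lay within 1000 bases upstream for 19 of 78 nuclear members matched to GENCODE (24.4%), beside 10.8% of protein-coding genes in the table.

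The start of Sdhd lies 98 bases from that of Timm8b, a gene of the mitochondrial import system on the opposite strand. Timm8b was 4.26 and 4.77 in ILCP_WT, against 4.98, 5.15 and 5.28 in ALP_WT (difference -0.59 ± 0.43, adjusted p = 0.424). Phf14 starts 312 bases from Ndufa4 and differed by -1.04 ± 0.62 in ILCP_WT against ALP_WT (adjusted p = 0.319); Kin starts 83 bases from Atp5c1 and differed by 0.32 ± 0.48 (adjusted p = 0.74). The bases upstream of these 3 members that lie in no annotated exon are printed as promoters of called members with a close opposite start, with the ETS motif in capitals: Sdhd (chr9:50603850-50603909, minus strand), Atp5c1 (chr2:10080511-10080592, minus strand) and Ndufa4 (chr6:11907498-11907700, minus strand).
Sdhd: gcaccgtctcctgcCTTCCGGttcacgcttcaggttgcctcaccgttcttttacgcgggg
Atp5c1: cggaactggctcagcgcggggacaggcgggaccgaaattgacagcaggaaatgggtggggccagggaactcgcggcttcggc
Ndufa4: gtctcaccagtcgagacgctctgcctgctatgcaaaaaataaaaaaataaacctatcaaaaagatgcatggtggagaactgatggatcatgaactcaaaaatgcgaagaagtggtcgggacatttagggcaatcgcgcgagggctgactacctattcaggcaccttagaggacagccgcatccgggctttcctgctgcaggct

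Genes that feed or build the chain were read from lists. Of 21 glycolysis genes, 6 rose and 0 fell in ILCP_WT against ALP_WT, or 28.6% higher, beside 5.56% of all genes, with a median of 0.47, beside -0.09 for all genes. Aldoa, the aldolase of this pathway, was 9.71 ± 0.21 in ILCP_WT (n = 2) and 8.20 ± 0.17 in ALP_WT (n = 3), mean ± SD, an increase of 1.52 ± 0.17 (adjusted p = 0.00018). Pfkp, a phosphofructokinase, rose by 1.97 ± 0.37 (adjusted p = 0.00435), and Slc16a3, a lactate exporter, Eno1 and Pkm also rose. In ILCP_WT against EILP_WT 5 of the 21 rose (23.8%, beside 2.61% of all genes) and in ILCP_WT against cEILP_WT 3 did (14.3%, beside 2.69%). Of 17 genes of the tricarboxylic acid cycle, 1 rose and 5 fell in ILCP_WT against ALP_WT, or 5.88% and 29.4%, beside 5.56% and 7.86% of all genes. Idh2, the mitochondrial NADP-dependent isocitrate dehydrogenase, was 7.43 ± 0.12 in ILCP_WT and 9.44 ± 0.16 in ALP_WT and fell by 2.01 ± 0.15 (adjusted p = 8.19e-06); Suclg2, Fh1, Idh3g and Suclg1 fell by 0.91 to 1.49. Idh2 also fell by 1.88 ± 0.15 against cEILP_WT (adjusted p = 2.55e-05). Cs, citrate synthase, is named after its value was seen, as the one that rose, and it rose by 0.82 ± 0.24 (adjusted p = 0.0403).

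Of 77 genes of the mitochondrial ribosome, 0 rose and 5 fell in ILCP_WT against ALP_WT (Mrps22, Mrps10, Mrpl16, Mrpl42 and Mrps14), with a median of -0.38; the share that fell, 6.49%, was below the 7.86% of all genes. Of 41 measured assembly factor genes, 0 rose and 2 fell (4.88%, also below that share), Ndufaf6 and Atpif1. Atpif1, which encodes the inhibitor of ATP synthase, was 6.23 ± 0.30 in ILCP_WT and 7.13 ± 0.08 in ALP_WT (adjusted p = 0.0156). Of 18 electron carrier and coenzyme Q genes, 0 rose and 2 fell (11.1%), Coq4 and Coq2. Of 20 measured genes for mitochondrial DNA and RNA upkeep, 0 rose and 2 fell (10%), Fastkd1 and Ssbp1, with a median of -1.04. None of 7 inner membrane carrier and pore genes passed by limma. Of 12 regulators of mitochondrial genes, 2 rose, Hif1a by 1.47 ± 0.18 and Mycn by 1.12 ± 0.30, and 2 fell, Myc by 2.49 ± 0.26 and Gabpb1, a partner of GABPA, by 0.80 ± 0.23. Each count is 16.7% of the list, beside 5.56% of all genes that rose and 7.86% that fell. In EILP_WT against ALP_WT the same 4 regulators passed in the same directions, and Aldoa was the one gene called in the other lists. In EILP_KO against EILP_WT none of these lists held a call by limma.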

How the data were processed

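The deposited table holds log2 values (CPM or TPM, which is not stated) for 12798 genes in 15 libraries; the authors' steps, per the submitters' processing notes, used bcl2fastq 2.17, STAR 2.5.2b, RSEM 1.2.23, limma (version not given) and build mm10, with the annotation not given in the sources used here. The values have the same maximum in every library, as after quantile normalization, which removes differences in total RNA. A further 24 unnamed columns were not used. The labels name SMARTer Ultra Low Input v3 and Nextera XT kits, which do not mark strand. The 12572 genes reaching 0 on the log2 scale in 2 or more libraries were fitted with limma 3.58.1 in R 4.3.3, with group and batch as terms, an intensity trend and 8 residual degrees of freedom, and Benjamini-Hochberg adjustment was made over all genes per comparison. The fit was tested on simulated data. Named genes were all members called, the 3 highest and lowest per comparison, core subunits, tissue forms, the widest and flattest members, those at a library's lowest value, and up to 5 called genes per list. The members and lists were chosen with earlier results of these data known. Coordinates come from GENCODE vM21, in which 89 of 90 members matched, copies from a megablast search of its transcripts, and promoters from RefSeq.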

Additional observations from a re-analysis of the deposited data

How the results depend on the processing

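Leaving out each library in turn gave 0 to 2 nuclear calls for EILP_WT against ALP_WT, 0 to 1 for sEILP_WT against ALP_WT, 0 to 3 for ILCP_WT against cEILP_WT, 1 to 3 for ILCP_WT against EILP_WT, 4 to 10 for ILCP_WT against ALP_WT (4 without ILCP_WT replicate 2) and 2 to 4 for the F test; for the mitochondrially encoded genes it gave 0 to 2 calls for ILCP_WT against cEILP_WT and ALP_WT and 0 elsewhere. Where ILCP_WT, sEILP_WT or EILP_KO was left with 1 library, that library was assumed to vary like the other groups. Cyclic loess normalization gave 1 nuclear call for ILCP_WT against EILP_WT; in ILCP_WT against ALP_WT it ended those of Ndufa9 and Cox4i1 and added Ndufv3, and it ended the Sdhd calls against EILP_WT and cEILP_WT and the Atp5c1 F test call. It also turned the nuclear median of ILCP_WT against cEILP_WT to 0.05. A stricter filter, a log2 value of at least 4, gave 2 for EILP_WT against ALP_WT and 14 for ILCP_WT against ALP_WT, with fewer genes tested. Without the batch term there were 2 for EILP_WT against ALP_WT and 1, Ndufa4, for sEILP_WT against ALP_WT. Without the intensity trend there were 0 for EILP_WT against ALP_WT, 1 each for ILCP_WT against cEILP_WT and EILP_WT and 1 in the F test. Fitting only the groups compared gave 0 for ILCP_WT against cEILP_WT and EILP_WT and 4 for ILCP_WT against ALP_WT; in EILP_WT against ALP_WT the count stayed at 1, with Cox6a2 called (adjusted p = 0.0309) and Ndufa4 not (0.119). Batch 1 alone gave 0 nuclear calls for EILP_WT against ALP_WT, ILCP_WT against cEILP_WT and the F test and 3 for ILCP_WT against ALP_WT, and mitochondrially encoded calls of 3 for ILCP_WT against cEILP_WT (mt-Co1, mt-Nd5, mt-Cytb) and 2 each (mt-Co1, mt-Nd5) against EILP_WT, ALP_WT and in the F test. Leaving out cEILP_WT replicate 3 and ILCP_WT replicate 1 together, an alternative chosen after seeing the data, gave 2 for EILP_WT against ALP_WT, 0 for ILCP_WT against cEILP_WT and 4 for ILCP_WT against EILP_WT. Where not stated, the cause was not tested. Same-numbered libraries did not deviate together from their group means (33 pairs, correlation -0.101 to 0.0885). Groups of 2 libraries mirror each other, so these pairs are not independent. The check cannot show whether same-numbered libraries share animals or a sort day. The fit with a replicate block in place of the batch gave 2 calls in the F test, ending those of Cox7a2l and Atp5c1 (adjusted p = 0.0768 and 0.0598). It also ended the Uqcrq call of ILCP_WT against cEILP_WT (adjusted p = 0.0621). No named call changed direction in any fit run. Read depth is unknown and sets no limit that can be stated; the table holds log values, so no other pseudocount was tried.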
